A study of Mus musculus with 2 samples.

Results

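Collagen genes encode the alpha chains that wind as trimers into the triple helices of the extracellular matrix. They were followed here through single-nucleus RNA sequencing of brown adipose tissue, the heat-producing fat depot, of mice. A gene was taken where its symbol was Col, a number, the letter a and a number, and where it had at least 50 UMIs (unique molecular identifiers, each counting 1 captured RNA molecule) summed over all nuclei of both deposited count tables. Of 22620 genes, 44 had such a symbol and 32 reached the minimum. The members nearest to it were Col10a1 with 87 UMIs and Col25a1 with 127, and the genes just below it were Col24a1 with 48, Col26a1 with 40 and Col4a6 with 38. By chain family the members were 8 of 11 fibrillar, 5 of 6 basement membrane network, 4 of 6 beaded filament, 1 of 1 anchoring fibril, 2 of 3 short-chain network, 6 of 9 fibril-associated (FACIT), 3 of 4 transmembrane and 2 of 2 multiplexin chains, with Col28a1, 1 of 2, in none of these.

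The study compared 2 libraries, both from the brown adipose tissue of mice aged 4 weeks: 1 from Flox mice and 1 from Nfe2l1(f)-KO mice, labelled KO. Nfe2l1 encodes the transcription factor NRF1, which raises proteasome genes, and "Flox" names an allele flanked by recombination sites. The promoter that drove the deletion, the exons deleted and the number of mice behind each library were not given in the sources at hand. Nfe2l1 RNA stood at 131 and 313 CPM in adipocyte-like nuclei of the libraries labelled Flox and KO, so it was higher, not lower, under the KO label. In fibroblast/progenitor-like nuclei it was 63.8 and 68.2 CPM. Whether the reads counted for Nfe2l1 lie in the deleted part is not known, and the groups are therefore called the library labelled Flox and the library labelled KO.

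Fibrillar chains such as those of types I, III and V build the tensile fibres of loose connective tissue, and in fat they are made mainly by stromal fibroblasts. Type IV chains form the sheet-like network of basement membranes, which surrounds every adipocyte and lies under the endothelium of every capillary. Beaded filament chains of type VI, the FACIT chains and the multiplexins link these networks to each other and to cell surfaces, while transmembrane chains stay anchored in the cell membrane.

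The 2 head-to-head pairs among the members are shown by their shared promoters, because both chains of a pair start within 1 window of 300 bases, and Col3a1 and Col1a2 are shown as fibrillar chains that separate the fibroblast subtypes described further on to different degrees. The windows run 5′ to 3′ from RefSeq (GRCm38.p6) in the direction of the named gene, from 250 bases before its start to 50 bases from it, and capitals mark matches on either strand to the letters of the TATA box (TATAAA), of the CCAAT box and of the GC box that the factor Sp1 is known to bind (GGGCGG). Col4a2 is on chr8:11312555-11312854, + strand, a window that also holds the start of Col4a1 on the opposite strand at 11312826. Col4a4 is on chr1:82586800-82587099, − strand, and holds the start of Col4a3 at 82586921. Col3a1 is on chr1:45311288-45311587 and Col1a2 on chr6:4505368-4505667, both + strand.
Col4a2: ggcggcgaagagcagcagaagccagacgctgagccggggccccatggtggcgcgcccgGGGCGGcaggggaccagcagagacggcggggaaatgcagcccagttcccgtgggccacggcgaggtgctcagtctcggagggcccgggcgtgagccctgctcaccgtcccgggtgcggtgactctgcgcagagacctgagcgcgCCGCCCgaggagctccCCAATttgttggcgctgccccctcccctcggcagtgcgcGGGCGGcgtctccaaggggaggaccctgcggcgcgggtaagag
Col4a4: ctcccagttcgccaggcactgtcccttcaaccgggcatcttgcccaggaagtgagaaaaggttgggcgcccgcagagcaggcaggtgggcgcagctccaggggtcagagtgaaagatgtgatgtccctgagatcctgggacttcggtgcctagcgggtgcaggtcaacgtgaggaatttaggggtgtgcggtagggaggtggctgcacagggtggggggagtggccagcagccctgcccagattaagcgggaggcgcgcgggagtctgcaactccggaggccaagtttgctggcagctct
Col3a1: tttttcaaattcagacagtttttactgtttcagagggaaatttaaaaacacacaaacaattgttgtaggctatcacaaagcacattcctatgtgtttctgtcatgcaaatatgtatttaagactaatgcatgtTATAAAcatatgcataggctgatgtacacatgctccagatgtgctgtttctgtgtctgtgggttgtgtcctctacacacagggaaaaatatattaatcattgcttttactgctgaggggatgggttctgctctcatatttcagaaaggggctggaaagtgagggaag
Col1a2: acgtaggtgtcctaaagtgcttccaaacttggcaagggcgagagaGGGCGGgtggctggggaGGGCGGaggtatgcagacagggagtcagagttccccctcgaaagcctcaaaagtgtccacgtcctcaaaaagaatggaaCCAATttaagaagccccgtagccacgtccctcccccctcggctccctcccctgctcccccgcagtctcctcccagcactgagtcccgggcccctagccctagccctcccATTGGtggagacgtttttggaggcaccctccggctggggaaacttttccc
The starts of Col4a1 and Col4a2 were 21 bases apart and those of Col4a4 and Col4a3 were 72 bases apart. The Col4a2 window held 3 matches to GGGCGG and 1 to CCAAT, the Col1a2 window 2 and 2, the Col3a1 window 1 match to TATAAA, and the Col4a4 window none. RefSeq windows were found for 26 of the 32 members, 28 windows in all. TATAAA was in 4 of the 28 against 13.6% of 32851 promoters, CCAAT in 9 against 37.4%, and GGGCGG in 17 against 35.7%. These matches describe letters only.

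The libraries labelled Flox and KO held 16145 and 13030 barcodes with 46528077 and 43080725 UMIs (medians 2375 and 2755 per barcode), and 65 barcode sequences occurred in both. After filters and doublet removal 13986 and 11570 nuclei remained. They were clustered with the collagen genes left out, and 8 classes of at least 40 nuclei in each library were named from marker genes. Adipocyte-like nuclei made up 4 clusters, each named by 8 to 11 of 13 adipocyte markers, and were not divided into brown and white. Hereafter, paired values give the library labelled Flox first and the library labelled KO second, levels are CPM (UMIs of a gene per 1000000 UMIs of the class), and ranges in parentheses are 95% intervals for counting error only. With 1 library per genotype there was no replicate and no test between genotypes. Skeletal muscle-like nuclei were 298 and 73. Because reads were taken from the 3′ end and introns differ in length, levels were compared between classes for a given gene and not between genes.

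Fibroblast/progenitor-like nuclei held the most collagen RNA. Summed over the 32 members it came to 83.4 and 89.2 UMIs per 10000 in these nuclei. In Schwann-like nuclei it was 33.0 and 39.1, in mural-like nuclei (pericytes and smooth muscle of vessels) 30.3 and 28.6, in endothelial-like nuclei 14.0 and 13.1 and in adipocyte-like nuclei 8.60 and 7.32. Macrophage/monocyte-like nuclei, at 1.89 and 1.88, and T/NK-like nuclei, at 4.37 and 4.24, had the least. After each nucleus was thinned to 1000 UMIs, 98.6% and 98.8% of fibroblast/progenitor-like nuclei had at least 1 member, against 54.2% and 50.3% of adipocyte-like, 26.8% and 26.2% of T/NK-like and 16.5% and 15.3% of macrophage/monocyte-like nuclei. Before thinning these shares were 98.3% and 98.8%, 83.4% and 82.1%, 46.5% and 37.9% and 24.0% and 30.7%, and thinning left out 548 and 275 fibroblast/progenitor-like, 98 and 502 adipocyte-like, 49 and 47 T/NK-like and 131 and 71 macrophage/monocyte-like nuclei under 1000 UMIs. T/NK-like and macrophage/monocyte-like nuclei come from cells not known as collagen producers and serve here as the background.

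Of the 32 members, 27 had their highest level in the same class in both libraries. Fibroblast/progenitor-like nuclei were that class for 14 members, against 6.24% of the 13916 genes with at least 50 UMIs. Mural-like nuclei were highest for 4 (5.50% of genes), Schwann-like for 3 (5.52%), adipocyte-like for 3 (10.9%), skeletal muscle-like for 2 (7.14%) and endothelial-like for 1 (6.72%), while no member was highest in T/NK-like (6.03%) or macrophage/monocyte-like nuclei (9.74%). For 18 members the highest class stood above the second by more than counting error in both libraries, and 11 of these were highest in fibroblast/progenitor-like nuclei. Col9a3, Col10a1, Col15a1, Col18a1 and Col23a1 had another highest class in each library.

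**Figure D1:**
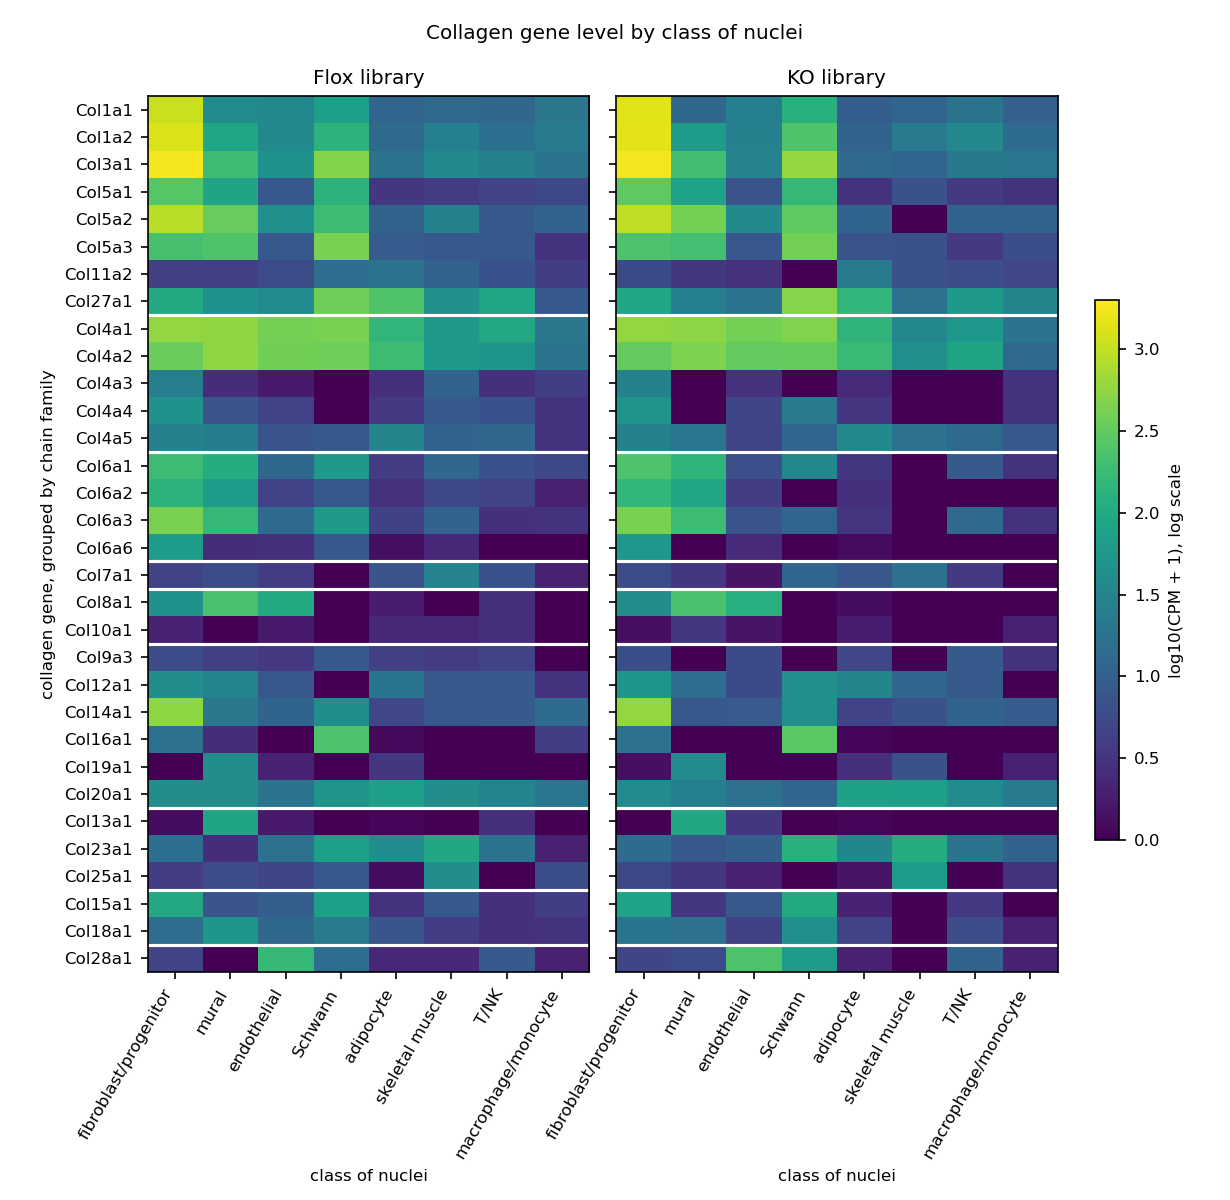
Level of each of the 32 collagen genes, as log10(CPM + 1) in colour (log scale), by class of nuclei, with the library labelled Flox in the left panel and the library labelled KO in the right. Rows are grouped by chain family, and the fibroblast/progenitor column is the brightest for most fibrillar and beaded filament chains in both panels, with Col4a1 and Col4a2 bright in several columns.

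The main fibrillar chains were highest in fibroblasts. Col3a1, the type III chain, stood at 1809.6 CPM (interval 1766 to 1854) and 1727 CPM (1679.6 to 1776) in fibroblast/progenitor-like nuclei. Schwann-like nuclei came second with 488 and 576 CPM, a ratio of 3.71 (2.92 to 4.78) and 3.0 (2.28 to 4.02). The type I chains behaved alike, with Col1a1 at 1095 and 1385 CPM and Col1a2 at 1286 and 1472 CPM in fibroblast/progenitor-like nuclei. Col5a2, a chain of the type V fibrils that set fibre diameter, was at 873 and 949 CPM there and at 338 and 405 CPM in mural-like nuclei. Its partner Col5a1 was at 266 and 299 CPM in fibroblast/progenitor-like nuclei. All 5 of these chains had their highest level in fibroblast/progenitor-like nuclei in both libraries.

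In adipocyte-like nuclei these chains lay within the range of the markers of fibroblasts, some of them above the marker median. The 13 fibroblast markers stood in adipocyte-like nuclei at a median of 0.770% and 0.716% of their fibroblast level (ranges 0.589% to 4.19% and 0.314% to 5.34%). Col3a1 stood at 0.945% and 0.752%, Col1a1 at 0.984% and 0.626%, Col6a3 at 0.756% and 0.488% and Col14a1 at 0.732% and 0.614%. In CPM, Col1a2 was at 12.8 and 10.2, Col5a2 at 10.4 and 10.6 and Col5a1 at 2.35 and 2.08 in adipocyte-like nuclei. Other members were far outside that range in the same nuclei, with Col4a1 at 25.4% and 23.8%, Col4a2 at 52.9% and 52.3% and Col12a1 at 45.5% and 56.3% of the fibroblast level. In T/NK-like nuclei, which are not known to make basement membrane, thinned shares of nuclei with Col4a2 were 3.92% (1.45 to 8.34) and 3.28% (0.900 to 8.18), against 16.6% (15.8 to 17.4) and 14.6% (13.8 to 15.4) in adipocyte-like nuclei (before thinning 8.91% and 8.28%, and 37.2% and 35.5%).

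Not every fibrillar chain was a fibroblast chain. Col5a3, another type V chain, was highest in Schwann-like nuclei, the glia that ensheathe nerve fibres, at 431 CPM (interval 329 to 554) and 399 CPM (279 to 552), against 214 and 241 CPM in fibroblast/progenitor-like nuclei. Col27a1, a chain of thin fibrils, was also highest there, at 373 CPM (interval 279 to 489.6) and 499 CPM (364 to 667). Adipocyte-like nuclei had 243 and 146 CPM of Col27a1, more than the 102 and 88.0 CPM of fibroblast/progenitor-like nuclei. Nuclei with Col27a1 after thinning were 17.4% (16.6 to 18.2) and 12.6% (11.9 to 13.4) of adipocyte-like nuclei and 3.27% (1.07 to 7.46) and 1.64% (0.199 to 5.80) of T/NK-like nuclei (before thinning 36.8% and 29.2%, and 11.4% and 5.92%). Col11a2, a fibrillar chain best known from cartilage, was highest in adipocyte-like nuclei at 17.2 and 21.0 CPM, a low level. The second class was Schwann-like nuclei in the library labelled Flox and skeletal muscle-like nuclei in the library labelled KO. With ratios of 1.20 (0.330 to 9.92) and 3.82 (0.684 to 151), neither was apart beyond counting error.

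The type IV chains of basement membranes were spread over vessel wall, nerve, fibroblasts and adipocytes. Col4a1 stood at 580.4 and 580.3 CPM in fibroblast/progenitor-like nuclei, 567 and 537 CPM in mural-like, 431 and 477 CPM in Schwann-like, 411 and 402 CPM in endothelial-like and 148 and 138 CPM in adipocyte-like nuclei. The fibroblast and mural levels of Col4a1 were not apart beyond counting error, at a ratio of 1.02 (0.913 to 1.15) and 1.08 (0.940 to 1.25). Col4a2 was highest in mural-like nuclei at 558 and 457 CPM, with 379 and 321 CPM in endothelial-like, 373 and 333 CPM in Schwann-like, 355 and 324 CPM in fibroblast/progenitor-like and 188 and 169 CPM in adipocyte-like nuclei. The products of both genes join in the same trimer, the common type IV collagen of most basement membranes.

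The head-to-head pair Col4a1 and Col4a2 was not read out in 1 fixed proportion. UMIs of Col4a1 over those of Col4a2 came to 1.63 (1.53 to 1.75) and 1.79 (1.65 to 1.95) in fibroblast/progenitor-like nuclei, 1.09 (0.997 to 1.18) and 1.25 (1.13 to 1.39) in endothelial-like and 1.02 (0.874 to 1.18) and 1.18 (0.966 to 1.43) in mural-like nuclei. In adipocyte-like nuclei the ratio was 0.785 (0.754 to 0.818) and 0.816 (0.782 to 0.850), below 1 in both libraries where the fibroblast ratio was above 1. The ratio itself depends on how many sites each transcript offers for capture, and only its change between classes is a comparison. The second pair, Col4a3 and Col4a4, had few UMIs, with Col4a4 at 48.0 and 50.4 CPM and Col4a3 at 24.4 and 27.1 CPM in fibroblast/progenitor-like nuclei. Col4a5, the X-linked chain that joins these in a separate trimer, was highest in adipocyte-like nuclei at 30.7 and 35.7 CPM, next to 27.4 and 27.1 CPM in fibroblast/progenitor-like nuclei. At ratios of 1.12 (0.911 to 1.39) and 1.32 (1.04 to 1.68), these classes were not apart beyond counting error in the library labelled Flox.

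The beaded filament chains of type VI had their highest levels in fibroblasts. Col6a3, which also gives rise to the circulating fragment endotrophin, stood at 437 and 432 CPM in fibroblast/progenitor-like nuclei and 158 and 181 CPM in mural-like nuclei. Col6a1 was at 184 and 238 CPM, Col6a2 at 135 and 153 CPM and Col6a6 at 66.2 and 56.4 CPM in fibroblast/progenitor-like nuclei, and all 4 were highest there in both libraries. Mural-like nuclei came second for Col6a1, at 109 and 144 CPM, and for Col6a2, at 66.6 and 89.5 CPM.

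FACIT chains, which sit on the surface of fibrils, were divided among classes. Col14a1 was highest in fibroblast/progenitor-like nuclei at 544 and 587 CPM, and Col12a1 also, at 40.4 and 55.0 CPM against 18.4 and 31.0 CPM in adipocyte-like nuclei. For Col12a1 the second class was mural-like nuclei in the library labelled Flox (29.3 CPM) and Schwann-like nuclei in the library labelled KO (44.3 CPM). With ratios of 1.38 (0.845 to 2.40) and 1.24 (0.475 to 4.61), neither was apart beyond counting error. Col16a1 stood at 237 CPM (interval 163 to 333) and 288 CPM (188 to 422) in Schwann-like nuclei and at 16.6 and 16.0 CPM in fibroblast/progenitor-like nuclei, a ratio to the second class of 14.3 (9.07 to 22.2) and 18.0 (10.7 to 29.7). Col19a1 was highest in mural-like nuclei at 42.3 and 37.7 CPM, although its 26 UMIs in the library labelled Flox came from 8 of 344 nuclei, 14 of them from 1 nucleus. Col20a1 was highest in adipocyte-like nuclei at 72.4 and 75.3 CPM, against 40.7 and 39.3 CPM in fibroblast/progenitor-like nuclei. The second class was Schwann-like nuclei in the library labelled Flox (50.3 CPM) and skeletal muscle-like nuclei in the library labelled KO (71.5 CPM), and with ratios of 1.44 (0.698 to 3.59) and 1.05 (0.615 to 1.98) neither was apart beyond counting error. Col9a3 had no class in common between the libraries.

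The remaining families were divided among classes, and several of their chains were rare. Col8a1, a short-chain network collagen of vessel walls, was highest in mural-like nuclei at 223 and 224 CPM, against 102 and 115 CPM in endothelial-like nuclei. Col13a1, a transmembrane chain, was at 84.5 and 94.2 CPM in mural-like nuclei. Col23a1, another, stood at 94.5 and 110 CPM in skeletal muscle-like and 71.8 and 122 CPM in Schwann-like nuclei. These classes were not apart beyond counting error in either library. In adipocyte-like nuclei Col23a1 was at 39.8 and 31.3 CPM and in endothelial-like nuclei at 16.1 and 8.90 CPM. Col28a1, a chain known from nerve and skin, was highest in endothelial-like nuclei at 164 and 239 CPM, with 14.4 and 66.5 CPM in Schwann-like nuclei. The multiplexin Col15a1, which links basement membranes to fibrils, stood at 98.0 and 77.6 CPM in fibroblast/progenitor-like and 71.8 and 99.8 CPM in Schwann-like nuclei, so the order of these neighbours changed between the libraries. Col25a1 and Col7a1, the anchoring fibril chain, were highest in skeletal muscle-like nuclei, Col25a1 at 40.9 and 66.0 CPM and Col7a1 at 28.2 and 16.5 CPM, the latter from 20 and 3 UMIs. The 29 Flox UMIs of Col25a1 came from 7 of 298 nuclei. Its ratio to the second class was 5.70 (0.944 to 233) and 15.8 (6.49 to 38.5). Col7a1 stood at 6.26 and 6.80 CPM in adipocyte-like nuclei, and its ratio to the second class was 4.51 (2.69 to 7.18) and 1.49 (0.119 to 78.1). Of Col10a1, the cartilage growth plate chain, 87 UMIs were counted. Its gene lies opposite Nt5dc1, that of Col18a1 opposite Slc19a1 and that of Col9a3 opposite Tcfl5, and no source used here states whether counting took strand into account, so reads of these partners cannot be told apart.

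A cluster of 29 and 21 perineurial-like nuclei, the cells that sheathe nerve bundles, was too small to count as 1 of the 8 classes and is given by its values. Col4a4 stood there at 424 CPM (interval 266 to 643) and 504 CPM (329 to 738), from 22 and 26 UMIs, against 48.0 and 50.4 CPM in fibroblast/progenitor-like nuclei. Its partner Col4a3 was at 174 and 232 CPM from 9 and 12 UMIs. Col8a1 was at 463 CPM (interval 297 to 689) and 619.8 CPM (424 to 875), above the mural level in both libraries by intervals that did not overlap. Col3a1 was at 637 and 542 CPM. The cells were named by 6 of 6 markers, and collagen genes took no part in the clustering.

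Fibroblast/progenitor-like nuclei held a Dpp4/Pi16 progenitor-like subtype (597 and 519 nuclei) and a Smoc2/Hmcn2 interstitial-like subtype (1389 and 861 nuclei), the first leading with Sema3e, Pi16 and Dpp4, the second with genes such as Adap2, Cilp and Epha3 in its parts. Another 69 and 40 nuclei, which also carried adipocyte genes, were left unnamed. Dpp4-positive fibroblasts are known as progenitors that lie in the connective tissue around fat lobules. Summed by family, progenitor-like nuclei carried more fibrillar RNA and interstitial-like nuclei more basement membrane RNA, in both libraries. Fibrillar members summed to 68.8 and 77.6 UMIs per 10000 in progenitor-like and 50.8 and 52.2 in interstitial-like nuclei. Basement membrane members summed to 4.29 and 3.92 and 13.9 and 14.5 per 10000 in the same order of subtypes. For comparison, capillary endothelial-like nuclei had 9.66 and 8.21 per 10000.

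Of the 24 members with at least 50 UMIs in these subtypes, 5 were at least 1.5-fold higher in progenitor-like nuclei in both libraries (6.26% of 9782 genes) and 11 were at least 1.5-fold higher in interstitial-like nuclei (9.20%). The median log2 ratio of progenitor-like over interstitial-like levels was -0.39 and -0.31 for members, against -0.14 and -0.13 for all genes. Col3a1 stood at 2505 and 2429 CPM in progenitor-like and 1455 and 1296 CPM in interstitial-like nuclei, a log2 ratio of 0.78 (0.71 to 0.86) and 0.91 (0.82 to 0.99). Col14a1 showed the wider split, with 923 and 946 CPM against 374 and 371 CPM and a log2 ratio of 1.30 (1.17 to 1.43) and 1.35 (1.20 to 1.5). Col4a5 and Col12a1 were higher too, Col12a1 at 51.7 and 84.4 CPM against 33.6 and 37.6 CPM. Col16a1 met the fold in both libraries, with intervals that covered 0. Col1a1 differed less, at a log2 ratio of 0.48 (0.39 to 0.58) and 0.67 (0.58 to 0.76). Col1a2 was at 0.45 (0.36 to 0.54) and 0.61 (0.52 to 0.70), and both were below 1.5-fold in the library labelled Flox.

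The members higher in interstitial-like nuclei included 4 of the 5 type IV chains, while Col4a5 was higher in progenitor-like nuclei, at 43.1 and 38.6 CPM against 20.4 and 17.2 CPM. Col15a1 was far higher in them, at 140.3 and 117 CPM against 4.31 and 3.59 CPM in progenitor-like nuclei, a log2 ratio of -4.89 (-6.66 to -3.79) and -4.86 (-6.92 to -3.65). Col4a1 stood at 779 and 842 CPM against 243 and 218 CPM, a log2 ratio of -1.68 (-1.87 to -1.5) and -1.95 (-2.15 to -1.75). Col4a2 stood at 492 and 487 CPM against 117 and 96.9 CPM, a log2 ratio of -2.06 (-2.34 to -1.81) and -2.32 (-2.63 to -2.04). The second type IV pair moved with the first. Col4a3 had 2 and 4 UMIs in progenitor-like nuclei, against 38.1 and 43.1 CPM in interstitial-like nuclei. Col27a1 (138 and 139.8 CPM against 23.3 and 4.49 CPM), Col6a3 (550.0 and 566 CPM against 225 and 263 CPM), Col5a3 (268 and 324 CPM against 128 and 132 CPM) and Col8a1 (60.6 and 55.4 CPM against 10.3 and 9.87 CPM) were higher in the same nuclei. Col4a4, Col18a1 and Col23a1 completed the 11, Col18a1 and Col23a1 with Flox intervals that covered 0.

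**Figure D2:**
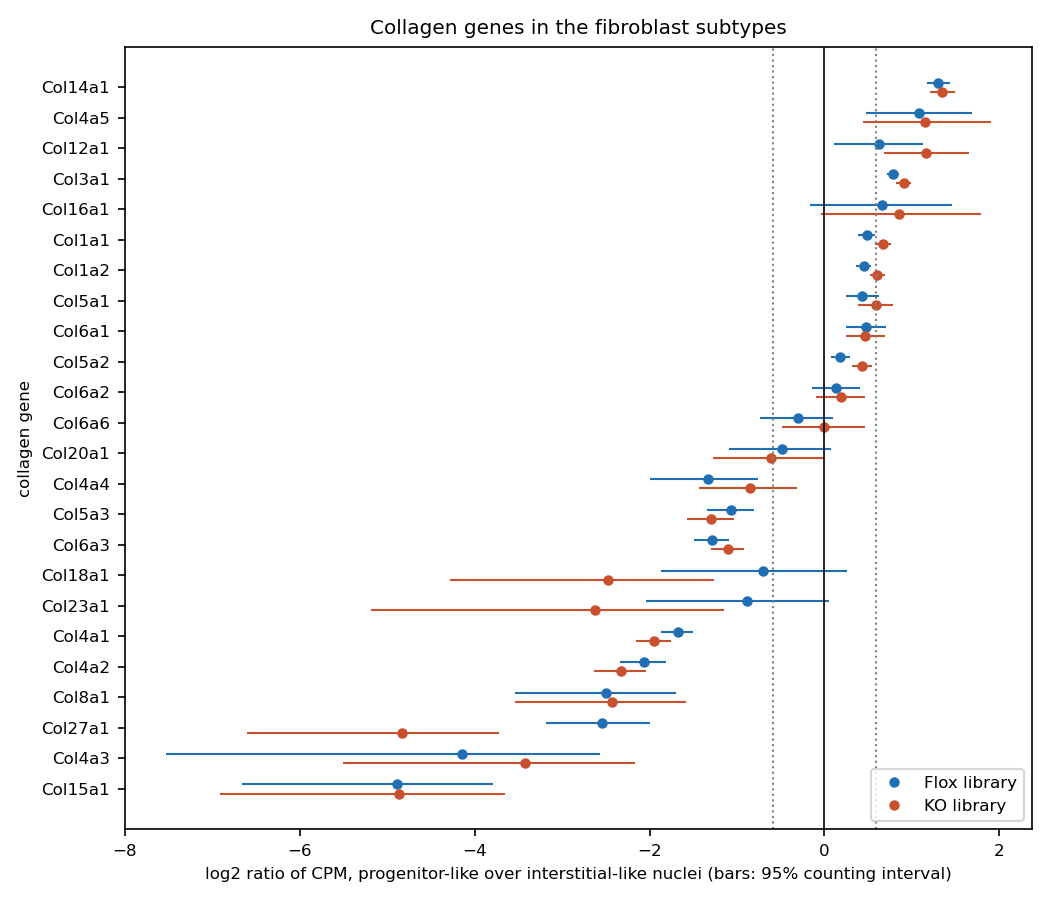
Log2 ratio of CPM in Dpp4/Pi16 progenitor-like over Smoc2/Hmcn2 interstitial-like nuclei for the 24 members with enough UMIs, with 1 row per gene, blue for the library labelled Flox and red for the library labelled KO. Points are ratios, horizontal bars are 95% counting intervals and dotted lines mark 1.5-fold; Col15a1 lies furthest left at -4.89 and -4.86, and Col14a1 lies to the right at 1.30 and 1.35.

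The shares of nuclei at equal depth differed in the same directions. After thinning to 1000 UMIs, Col14a1 was found in 51.6% (47.0 to 56.2) and 53.7% (48.8 to 58.5) of progenitor-like and 22.1% (19.6 to 24.9) and 21.8% (18.8 to 25.1) of interstitial-like nuclei (before thinning 62.8% and 68.2%, and 28.6% and 29.0%). Col4a1 was found in 17.9% (14.5 to 21.7) and 17.7% (14.2 to 21.7) of progenitor-like and 47.4% (44.2 to 50.6) and 49.1% (45.3 to 52.9) of interstitial-like nuclei (before thinning 27.6% and 27.9%, and 57.2% and 63.3%). The proportion of Col4a1 to Col4a2 UMIs also differed, at 2.07 (1.68 to 2.56) and 2.25 (1.79 to 2.85) in progenitor-like and 1.59 (1.47 to 1.71) and 1.73 (1.58 to 1.89) in interstitial-like nuclei.

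Interstitial-like nuclei fell into 3 subclusters, numbered 1 to 3, and the progenitor-like nuclei into subcluster 0. Subcluster 1, led by Adap2, Eya2 and Blnk, had the most Col15a1 RNA of the 4, with Col15a1 at 242 and 176 CPM and Col14a1 at 196 and 96.1 CPM. Subcluster 2, led by Cilp, Thbs4 and Hmcn2, had Col15a1 at 34.0 and 69.1 CPM and Col14a1 at 638 and 716 CPM. Subcluster 3, led by Epha3 and Gdf10, had type I levels above those of the progenitor-like nuclei, with Col1a1 at 2311 and 2442 CPM against 1352 and 1795 CPM in subcluster 0. The interstitial-like subtype was not uniform in its type I and III chains, while Col4a1 was above the progenitor-like level in each of its subclusters, at 848 and 1019 CPM, 748 and 666 CPM and 608 and 755 CPM.

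In the vessel wall, pericyte-like nuclei (263 and 177) and smooth muscle-like nuclei (47 and 17) were compared. Another 34 and 21 mural-like nuclei, mixed with adipocyte markers, were left unnamed. Of 12 members compared, 6 were at least 1.5-fold higher in pericyte-like nuclei in both libraries (12.3% of 3840 genes) and 0 in smooth muscle-like nuclei (10.6%). Col13a1 was at 101 and 107 CPM in pericyte-like nuclei and had no UMI in smooth muscle-like nuclei, where that count allows up to 59.3 and 148 CPM by the upper 95% Poisson bound. Col8a1 was at 254 and 253 CPM against 80.3 and 0 CPM, and Col5a2, Col5a1, Col5a3 and Col6a3 were the others. The log2 ratio had an interval off 0 in both libraries for Col8a1, at 1.53 (0.40 to 3.31) in the library labelled Flox and with a lower bound of 0.75 in the library labelled KO. The interval covered 0 for Col6a3 in both libraries and for Col5a1, Col5a2, Col5a3 and Col13a1 in the library labelled KO, where smooth muscle-like nuclei had 0 to 6 UMIs of each. After thinning to 1000 UMIs the count of 6 was 2, and with no minimum it was 15. With so few smooth muscle-like nuclei, members under the minimum stood at levels with wide intervals, Col18a1 at 225 CPM (interval 123 to 377) and 240.4 CPM (88.2 to 523) and Col19a1 at 161 CPM (interval 77.0 to 295) and 561 CPM (307 to 941).

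Endothelial-like nuclei were divided into capillary-like (1170 and 802) and large-vessel-like nuclei (65 and 26). Subclusters 2 (199 and 76 nuclei), 3 (64 and 36), 5 (53 and 36) and 6 (5 and 3) were left unnamed. Of these, subclusters 2, 3 and 5 were mixed with adipocyte markers. Subcluster 5, led by Pcdh7 and Selp, was otherwise closest to the large-vessel markers, so large-vessel-like means subcluster 4 alone. Of 8 members compared, 2 were at least 1.5-fold higher in large-vessel-like nuclei in both libraries (11.7% of 7620 genes) and 5 in capillary-like nuclei (9.13%). Col8a1 stood at 1060.3 CPM (interval 902 to 1238) and 1397 CPM (1146 to 1686) in large-vessel-like nuclei and at 63.4 and 72.1 CPM in capillary-like nuclei, and after thinning it was found in 35.7% (23.4 to 49.6) and 70.8% (48.9 to 87.4) of large-vessel-like nuclei (before thinning 43.1% and 73.1%). Col5a2 was at 464 and 297 CPM against 15.4 and 6.86 CPM. Capillary-like nuclei were higher in Col28a1, at 228 and 304 CPM against 6.63 and 12.9 CPM, in Col4a1, at 495 and 456 CPM against 159 and 194 CPM, and in Col4a2, at 464 and 362 CPM against 152 and 103 CPM. Col1a1 and Col1a2 completed the 5, at 20.3 and 23.3 CPM and 30.2 and 20.6 CPM, against 0 UMIs in the large-vessel-like nuclei of both libraries. With so few of those nuclei, the interval of the log2 ratio covered 0 for Col1a1 in both libraries, with upper bounds of 0.35 and 1.11, and for Col1a2 in the library labelled KO, with an upper bound of 1.30. In endothelial-like nuclei as a whole they stood at 3.05% and 1.82% and 2.82% and 1.81% of their fibroblast level, where the 13 fibroblast markers had medians of 2.41% and 1.52%, and the part of fibroblast RNA in these values was not tested.

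Within the capillary-like nuclei, Col28a1 and Col8a1 were divided between the subclusters. Endothelial subcluster 0 (956 and 668 nuclei) had Col28a1 at 289.7 and 334 CPM and Col8a1 at 5.81 and 1.75 CPM. Subcluster 1 (214 and 134 nuclei), led by Rapgef4, had Col28a1 at 50.1 and 196 CPM and Col8a1 at 229 and 326 CPM. Col28a1 was the leading gene of subcluster 0 although collagen genes were not used to form it, and after thinning it was found in 15.8% (13.1 to 18.7) and 19.5% (16.3 to 22.9) of all capillary-like nuclei, against 0% (0 to 2.38) and 1.64% (0.199 to 5.80) of T/NK-like nuclei (before thinning 16.7% and 24.4%, and 0.495% and 1.78%).

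**Figure D3:**
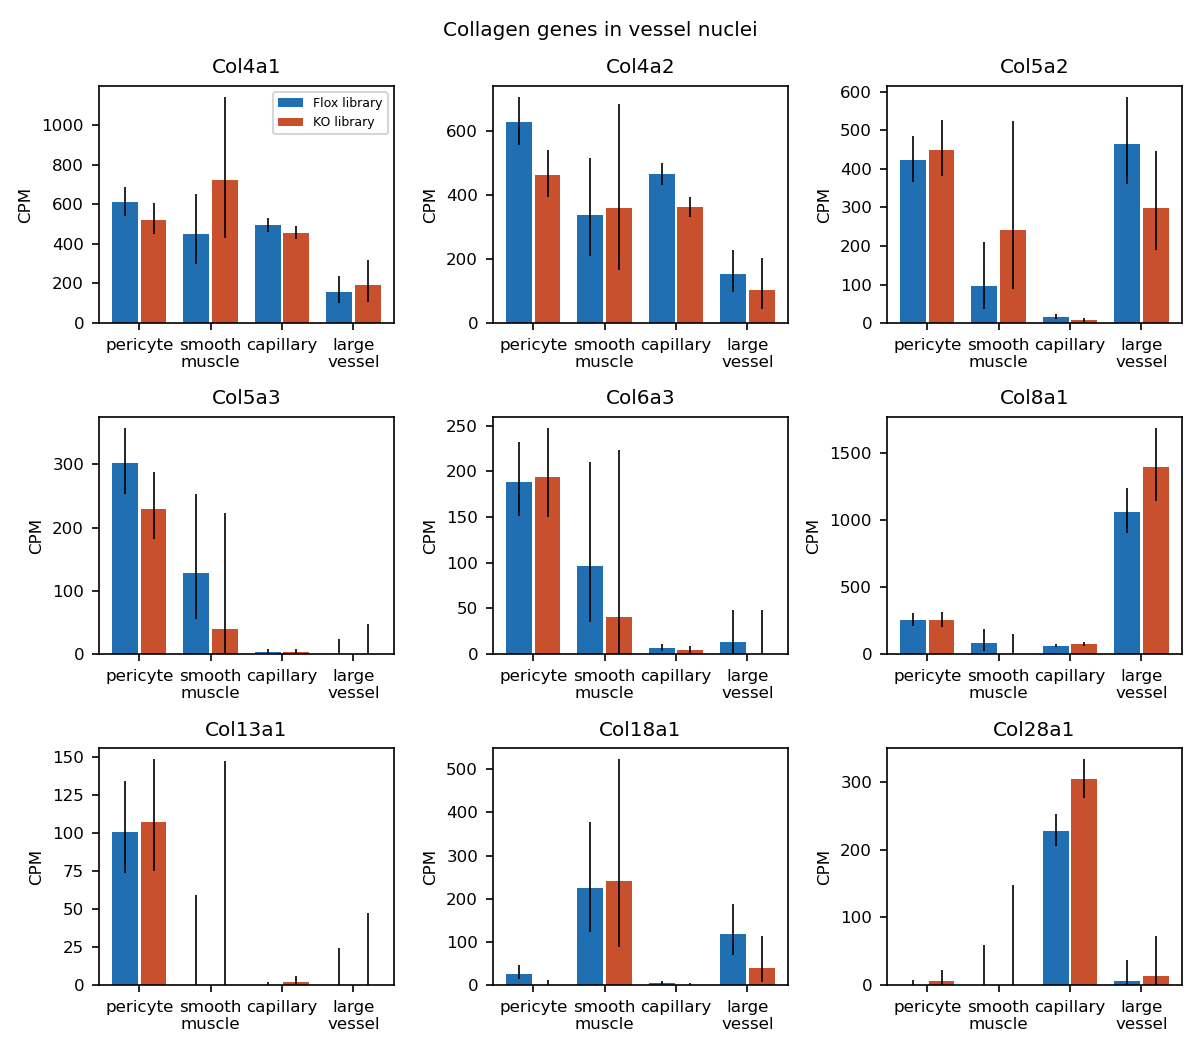
CPM of 9 members in pericyte-like, smooth muscle-like, capillary-like and large-vessel-like nuclei, 1 panel per gene on its own linear scale, with blue bars for the library labelled Flox, red bars for the library labelled KO and vertical lines for 95% Poisson intervals. Col8a1 is tallest in large-vessel-like nuclei and Col28a1 is tallest in capillary-like nuclei, and the intervals of smooth muscle-like nuclei are wide.

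Among adipocyte-like nuclei, cluster 7 (382 and 266 nuclei), led by Trhde, Slc7a10 and Retn, had a different set of chains from the 3 large clusters numbered 0 to 2. Its Col4a1 was 406 and 379 CPM, against 150.3 and 139 CPM in cluster 0, 117 and 116 CPM in cluster 1 and 127 and 125 CPM in cluster 2. Col4a2 was 387 and 303 CPM in cluster 7. Col15a1 was 42.3 and 21.8 CPM there and at most 0.554 and 0.725 CPM in the large clusters. Col27a1 went the other way, with 39.8 and 12.9 CPM in cluster 7 and 214 and 141 CPM, 238 and 172 CPM and 321 and 141 CPM in clusters 0, 1 and 2. Fibroblast markers summed to 7.05 and 8.94 UMIs per 10000 in cluster 7 and 2.40 and 2.77 in cluster 0, and their part in these levels was not tested.

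Between the libraries, the collagen genes of fibroblast/progenitor-like nuclei differed little. Of 24 members, 0 were at least 1.5-fold higher under the KO label (2.93% of 9943 genes) and 0 at least 1.5-fold lower (3.89%). Their median log2 ratio of KO over Flox was 0.04, against -0.03 for all genes, with 12 above 0. Intervals lay above 0 for 8 members and below 0 for 3. Summed members went from 83.4 to 89.2 UMIs per 10000, a ratio of 1.07 (1.05 to 1.09), and the fibroblast markers from 156 to 184, a ratio of 1.18 (1.17 to 1.19).

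Upward, Col12a1, a FACIT chain, had a log2 ratio of 0.44 (0.11 to 0.78), and Col6a1, from 184 to 238 CPM, one of 0.37 (0.22 to 0.53). Col18a1 was at 0.36 (-0.23 to 0.94), an interval that covered 0. Col1a1 went from 1095 to 1385 CPM, a log2 ratio of 0.34 (0.28 to 0.40), while Col3a1 was at -0.07 (-0.12 to -0.01) and Col4a1 at 0.00 (-0.09 to 0.09). Of the 6666 Col3a1 UMIs in the library labelled Flox, 321 came from 1 nucleus, a spread that the interval does not cover. Downward, Col15a1 was at -0.34 (-0.58 to -0.09) and Col6a6 at -0.23 (-0.53 to 0.06). Markers of skeletal muscle were lower under the KO label in these fibroblast nuclei for 8 of 8 measured, with a median log2 ratio of -1.30, and their part in the collagen values was not tested.

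Subclusters 1 and 2 of the interstitial-like nuclei differed between the libraries in opposite directions, a comparison made after the values were seen. In subcluster 1 (619 and 380 nuclei), Col3a1 went from 1487 to 785 CPM and Col1a1 from 702 to 398 CPM. In subcluster 2 (560 and 344 nuclei), Col3a1 went from 1117 to 1692 CPM and Col1a1 from 800.1 to 1414 CPM. Of 21 members in subcluster 1, 4 were at least 1.5-fold lower under the KO label (5.52% of genes), Col3a1, Col1a1, Col14a1 and Col8a1, and 1 was higher (3.88%), Col18a1. Of 19 members in subcluster 2, 4 were higher (4.72%), Col3a1, Col1a1, Col8a1 and Col15a1, and 0 lower (5.48%). Summed members had a ratio of 0.835 (0.807 to 0.864) in subcluster 1 and 1.30 (1.25 to 1.35) in subcluster 2. In fibroblast/progenitor-like nuclei as a whole, 1 Flox nucleus held 44 of 174 Col8a1 UMIs and 1 held 321 of 6666 Col3a1 UMIs.

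In the other fibroblast subclusters fewer members passed 1.5-fold. In subcluster 0 (progenitor-like), 1 of 18 members was higher (4.70%), Col12a1 at 51.7 and 84.4 CPM, and 0 were lower (4.36%), while Col1a1 went from 1352 to 1795 CPM. In subcluster 3 (210 and 137 nuclei), 0 of 12 were higher (7.35%) and 0 lower (7.08%), with Col1a1 at 2311 and 2442 CPM. In subcluster 4, the unnamed one, 0 of 13 were higher (8.85%) and 3 lower (9.78%), Col3a1, Col6a3 and Col14a1. Pooled over subclusters 1 to 3, the interstitial-like subtype had Col3a1 at 1455 and 1296 CPM and Col1a1 at 967 and 1127 CPM.

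**Figure D4:**
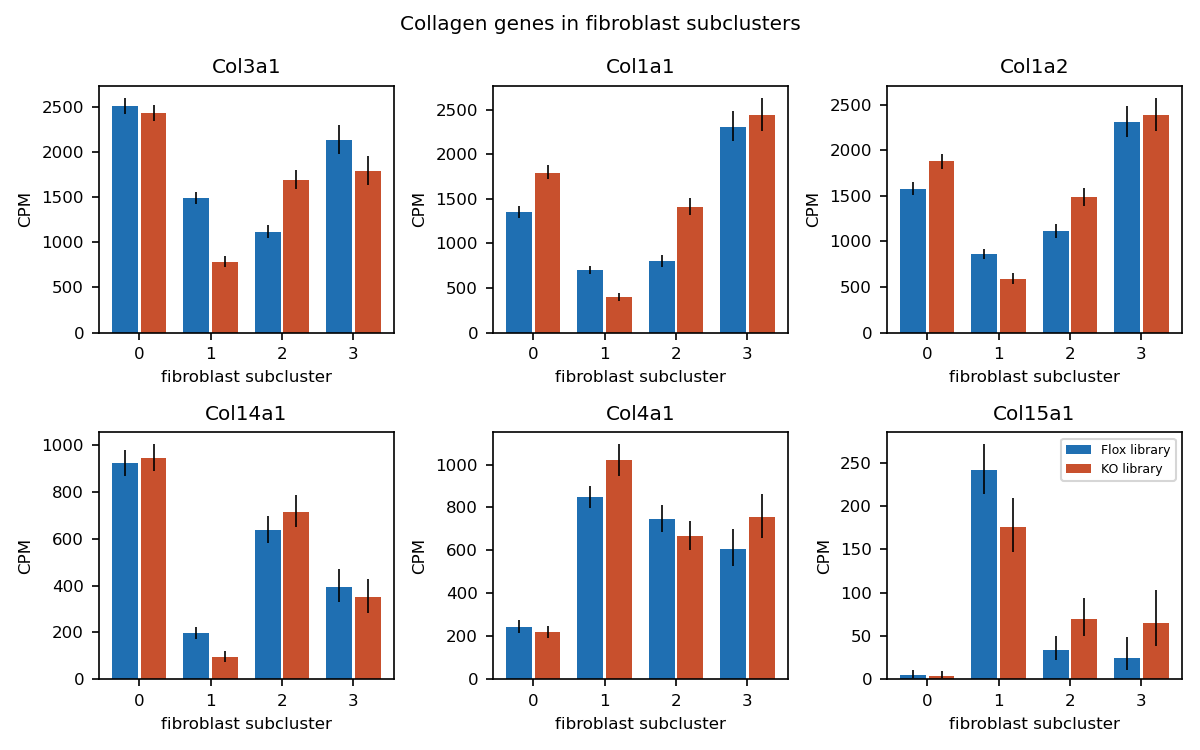
CPM of 6 members in fibroblast subclusters 0 to 3 (0 progenitor-like, 1 to 3 interstitial-like), with blue bars for the library labelled Flox, red bars for the library labelled KO and vertical lines for 95% Poisson intervals, each panel on its own linear scale. In Col3a1 and Col1a1 the red bar is lower than the blue one in subcluster 1 and higher in subcluster 2.

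Adipocyte-like nuclei carried less collagen RNA under the KO label, from 8.60 to 7.32 UMIs per 10000, a ratio of 0.851 (0.836 to 0.867). Of 27 members, 5 were at least 1.5-fold lower (8.34% of 12320 genes) and 1 higher (2.11%). The median log2 ratio was -0.27 for members, against -0.06 for all genes, with 7 above 0. Col27a1 went from 6850 UMIs at 243 CPM to 4278 at 146 CPM, a log2 ratio of -0.74 (-0.80 to -0.69). It was lower in each of the 4 adipocyte-like clusters, from 321 to 141 CPM in cluster 2, which Gbp11 and Iigp1 led, and from 238 to 172 CPM in cluster 1. Without Col27a1 the ratio was 0.951 (0.931 to 0.971) over the other members. Fibrillar members had a ratio of 0.674 (0.653 to 0.696) with Col27a1 and 0.911 (0.858 to 0.967) without it, and among them Col5a2 was at a log2 ratio of 0.04 (-0.20 to 0.27) and Col11a2 at 0.29 (0.12 to 0.46). Basement membrane members had a ratio of 0.936 (0.911 to 0.962). Of the endothelial markers measured in the same nuclei, 0 of 12 were above 0 and 8 at least 1.5-fold lower (median log2 ratio -0.92). Of the skeletal muscle markers, 0 of 10 were above 0 and 9 lower (median -1.42), and of the macrophage/monocyte markers 1 of 11 was above 0 and 4 lower (median -0.43). Of the fibroblast markers 5 of 13 were above 0, with 1 higher and 2 lower (median -0.06), and their sum went from 2.62 to 3.08 UMIs per 10000. The part of these markers in the collagen values was not tested.

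Col12a1 was the 1 member past 1.5-fold upward in adipocyte-like nuclei, from 18.4 to 31.0 CPM, a log2 ratio of 0.75 (0.59 to 0.91). By cluster it was 12.8 and 39.0 CPM in cluster 2, a ratio of 3.04 (2.41 to 3.86), and 22.0 and 32.0 CPM in cluster 0, a ratio of 1.45 (1.25 to 1.69). In cluster 1, at 21.4 and 26.3 CPM, the interval of the ratio covered 1, at 1.23 (0.977 to 1.55), as it did in cluster 7, with 6 and 7 UMIs, at 1.37 (0.394 to 4.93). Nuclei with Col12a1 after thinning were 1.53% (1.29 to 1.81) and 2.85% (2.49 to 3.25) of adipocyte-like nuclei and 0.654% (0.0165 to 3.59) and 0.820% (0.0208 to 4.48) of T/NK-like nuclei (before thinning 4.78% and 7.73%, and 1.98% and 1.78%). The gene is on chromosome 9, from 79598991 to 79718831 on the − strand (GRCm38). The other lower members were rare in these nuclei, Col18a1 at 6.65 and 3.71 CPM, Col6a3 at 3.31 and 2.11 CPM, Col15a1 at 2.06 and 1.12 CPM and Col10a1 at 1.35 and 0.851 CPM, the last with an interval that covered 0. The type IV chains differed less, with log2 ratios of -0.10 (-0.16 to -0.03) for Col4a1, -0.15 (-0.21 to -0.09) for Col4a2 and 0.22 (0.09 to 0.35) for Col4a5.

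**Figure D5:**
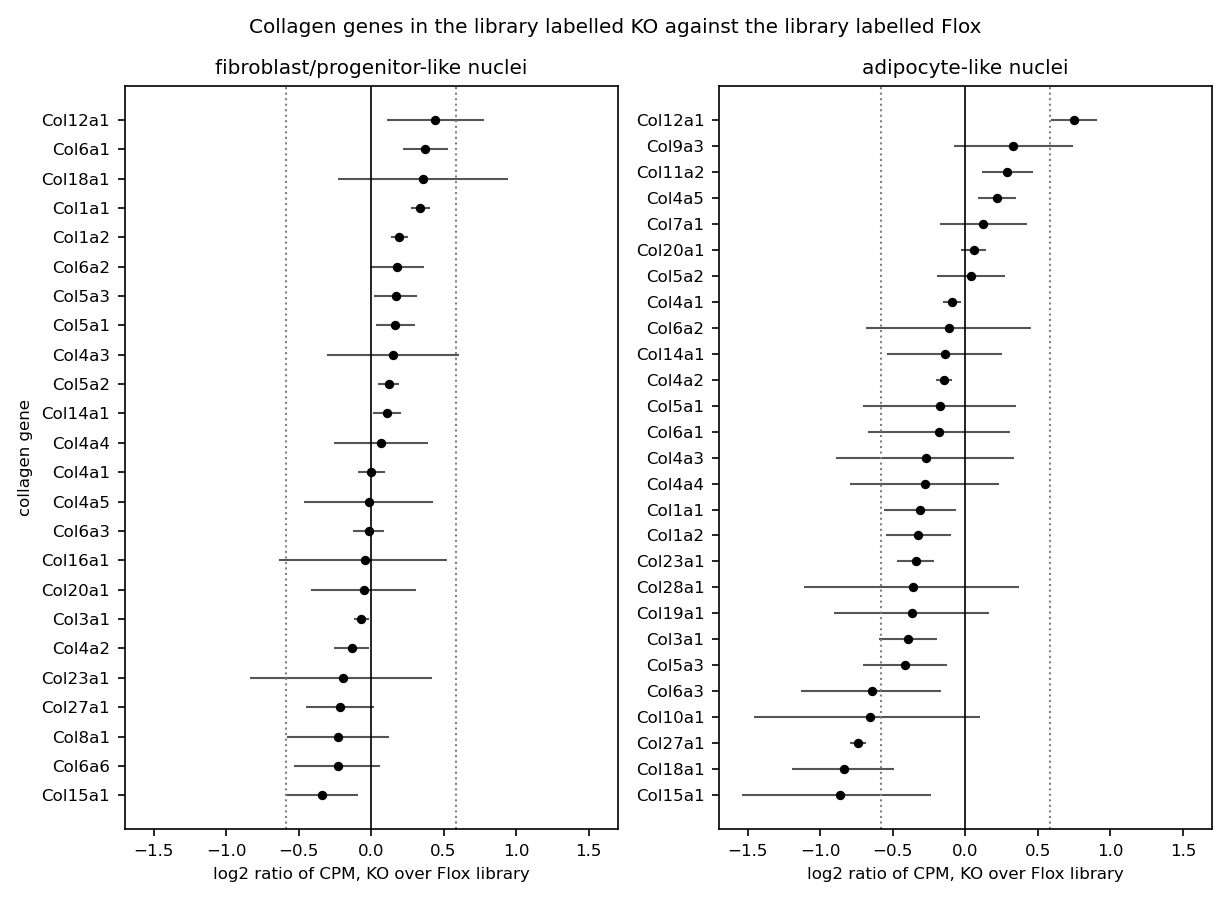
Log2 ratio of CPM in the library labelled KO over the library labelled Flox for the 24 members measured in fibroblast/progenitor-like nuclei (left) and the 27 in adipocyte-like nuclei (right), with 1 row per gene; points are ratios, bars are 95% counting intervals and dotted lines mark 1.5-fold. The fibroblast points all lie between the dotted lines, while in adipocyte-like nuclei Col27a1 lies at -0.74 and Col12a1 at 0.75.

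In endothelial-like nuclei 0 of 11 members were at least 1.5-fold higher under the KO label (2.73% of 9006 genes) and 3 lower (10.3%). Col27a1 went from 38.4 to 17.3 CPM, Col3a1 from 47.4 to 28.2 CPM and Col23a1 from 16.1 to 8.90 CPM, all at low levels. The class values also include the unnamed subclusters, most of them mixed with adipocyte markers. In capillary-like nuclei alone Col27a1 was at 10.5 and 8.92 CPM and Col3a1 at 30.2 and 21.3 CPM. Fibroblast markers in these nuclei summed to 5.62 and 3.92 UMIs per 10000, lower under the KO label as well. Of the adipocyte markers there, 2 of 13 were above 0 and 5 at least 1.5-fold lower (median log2 ratio -0.46). Of the skeletal muscle markers 0 of 8 were above 0 and 7 lower (median -1.78), while 4 of 4 erythroid markers were at least 1.5-fold higher (median 2.31). The part of these markers in the collagen values was not tested. Col28a1 was higher, from 164 to 239 CPM with a log2 ratio of 0.55 (0.36 to 0.74), below 1.5-fold. In mural-like nuclei 0 of 12 were higher (5.23%) and 0 lower (6.98%). In T/NK-like nuclei, 3 members passed the minimum, of which Col4a2, at 55.4 and 83.8 CPM, was higher (8.05%) and Col4a1, at 97.4 and 55.9 CPM, lower (8.71%). Col4a2 had 29 and 33 UMIs there, a log2 ratio of 0.60 (-0.17 to 1.37), an interval that covered 0. Col4a1 had 51 and 22 UMIs, a log2 ratio of -0.78 (-1.59 to -0.05). In macrophage/monocyte-like nuclei 0 members passed it, so 0 were counted as higher (4.55% of genes) or lower (4.56%).

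Procollagen chains are hydroxylated and folded in the endoplasmic reticulum, exported in large carriers, trimmed of their propeptides and crosslinked outside the cell, and the genes of these steps were read in fibroblast/progenitor-like nuclei. Of 14 propeptide cleavage and crosslinking genes, 11 had their highest level in these nuclei in both libraries, against 6.24% of the 13916 genes, as did 9 of 15 collagen breakdown genes and 7 of 16 genes of fibril-associated proteins. Dcn and Lum, among those 7, were also markers that named the class, so their place there is no separate result. The list counts had no UMI minimum, unlike the share over all genes. By comparison, 3 of 18 hydroxylation and folding genes and 1 of 9 export genes did. Lox, the enzyme that starts crosslinks, and Adamts3, which cuts the amino propeptide, were higher in interstitial-like nuclei, Lox at 31.9 against 57.5 CPM in Flox and 33.2 against 88.7 CPM in KO (progenitor-like first). Loxl1, Loxl2, Tll1 and Pcolce2 were at least 1.5-fold higher in progenitor-like nuclei. Of the fibril-associated genes, Fn1, Tnxb, Postn and Aspn were higher in progenitor-like and Bgn and Prelp in interstitial-like nuclei. Of 14 basement membrane partners, 5 were higher in interstitial-like nuclei, Nid2, Hspg2, Agrn, Smoc1 and Smoc2, the last of which names the subtype, while Nid1 was higher in progenitor-like nuclei. Of 10 collagen receptors, Itga2, Itga11, Ddr2, Antxr1 and Antxr2 were higher in progenitor-like and Itga1 in interstitial-like nuclei.

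Between the libraries, most genes of these lists stayed within 1.5-fold in fibroblast/progenitor-like nuclei. Of 17 hydroxylation and folding genes measured, 1 was at least 1.5-fold higher under the KO label and 1 lower, with a median log2 ratio of KO over Flox of 0.03. P3h2, a prolyl 3-hydroxylase, was at -1.16 on that scale and Colgalt2, which adds galactose to the chains, at -0.36. Crtap, a partner of the prolyl 3-hydroxylase complex, was at 0.59 and the chaperone Hspa5 at 0.30. Of 9 genes on the export list 0 were higher and 1 lower (median -0.09), with Sec13 at -0.72, Sar1b at -0.26, Mia3 at 0.14 and Tango2 at 0.06. Tango2 was counted by its place on the list, and whether it serves procollagen export was not examined. None of 11 propeptide and crosslinking genes passed 1.5-fold (median 0.08), with Bmp1 at -0.06, Pcolce2 at -0.04, Lox at 0.39 and Loxl3 at 0.34. Nor did any of 13 fibril-associated genes (median 0.12), with Postn at -0.55, Fn1 at -0.04, Ogn at 0.54 and Prelp at 0.50.

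Of 10 collagen breakdown genes 0 passed 1.5-fold (median 0.14), with the proteases Fap at -0.29, Ctsk at -0.18 and Mmp19 at 0.28 and the inhibitor Timp2 at 0.50. Of 14 basement membrane partners 2 were lower and 0 higher (median 0.11), with Lamb3 at -0.71, Smoc1 at -0.59, Nid1 at 0.32 and Smoc2 at 0.29. Of 10 receptors 1 was higher and 0 lower (median 0.14), with the integrin chains Itga1 at -0.14, Itga2 at 0.59 and Itga11 at 0.32 and the uptake receptor Mrc2 at -0.07. Of 18 TGF-beta and CCN signalling genes, which include inducers of collagen transcription, 15 were above 0 and 4 at least 1.5-fold higher (median 0.27), with Tgfb3 at 0.70, Skil at 0.59, Tgfb2 at -0.44 and Smad3 at -0.23. The fibroblast markers themselves were above 0 for 12 of 13, with a median of 0.17.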

How the data were processed

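Single-nucleus libraries (10x 3′ v3 chemistry, 8000 nuclei targeted each, per the labels' protocols) were deposited as whole UMI counts. Per the file headers the authors used Cell Ranger 5.0.0, and per the submitters' processing notes the build was mm10. No source used here states the annotation or how introns and strand were treated. Every deposited barcode had at least 500 UMIs, so nuclei below were already removed.

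Barcodes with under 200 genes or over 10% mitochondrial UMIs were removed (99 and 129), then doublets by Scrublet score at 0.8% per 1000 barcodes (2060 and 1331). Clustering (scanpy 1.11.5, leidenalg 0.10.2) used 2000 variable genes without collagen genes, 30 components, 15 neighbours and resolution 0.5, with no batch correction, and subclusters used 1000 genes, 15 components and resolution 0.3. A cluster took the name of the marker list with the highest mean log2 fold over other clusters, with at least 3 markers at 2-fold or more. A subcluster took its name likewise but with no minimum fold. It needed at least 3 markers at 20 CPM or more and within 2-fold of the highest subcluster. Interstitial-like subclusters 1, 2 and 3 were named at mean log2 folds of 0.40, 0.17 and 0.20. A subcluster carrying markers of another class was left unnamed. These rules were adjusted after the clusters were seen. Names rest on RNA alone, hence "-like".

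UMIs were summed per class and library. Log2 ratios added 0.5 UMI and were limited to genes that reached 50 UMIs in that class. Exact Poisson (levels), binomial (ratios) and Clopper-Pearson (shares) 95% intervals cover counting error only. With 1 library per genotype no p was computed, and differences were counted at 1.5-fold. Calculations were tested on simulated data. Members, lists and tests were chosen with earlier results of these data known. Members highest in a class, past 1.5-fold or with at least 500 UMIs were named with values, and 2 genes each way per list among those with at least 100 UMIs. Some genes of the lists and clusters are not reported here. Alternatives included edgeR 4.0.16 TMM factors, other filters, resolutions, thinning and minimums. Positions came from GENCODE vM21 (GRCm38) and promoters from RefSeq.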

Additional observations from a re-analysis of the deposited data

Results flagged for a closer look

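Collagen genes of the fibroblasts went opposite ways between the libraries in different subclusters. The log2 ratio of KO over Flox in subcluster 2 exceeded that in subcluster 1 by 1.52 for Col3a1, by 1.64 for Col1a1 and by 2.08 for Col8a1. For Col3a1 it exceeded that in subcluster 4 by 1.26. In each case the library labelled KO lay above the library labelled Flox in subcluster 2 and below it in the other subcluster, by counting intervals that did not cover 0. Counting intervals do not cover spread between nuclei. In the library labelled Flox, 1 fibroblast/progenitor-like nucleus held 44 of 174 Col8a1 UMIs and 1 held 321 of 6666 Col3a1 UMIs. The subcluster of these nuclei was not determined. With 1 library per genotype, these differences were not tested.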

How the results depend on the processing

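Alternatives were applied to up to 10 summary values, those each choice could change, and were set with earlier results of these data known. Those that read 1 fibroblast subtype alone, left out nuclei in no named subtype or left out Col27a1 were added after seeing the data. None reversed a direction, and 97 of 117 values stayed close to the main one. The 5 members higher in progenitor-like nuclei became 2 with at least 500 genes and at most 5% mitochondrial UMIs, 3 with doublets kept, 3 at Leiden resolution 0.3 and 3 at resolution 1.0. The fibroblast summed ratio of KO over Flox (1.07) was 1.11 with doublets kept, 1.12 as mean CPM over nuclei, 1.11 within progenitor-like and 1.03 within interstitial-like nuclei. The adipocyte summed ratio (0.851) was 0.870 with TMM factors, 0.873 as mean CPM over nuclei, 0.877 after thinning to 1000 UMIs and 0.951 without Col27a1. The 0 members higher under the KO label in fibroblast/progenitor-like nuclei became 1 as mean CPM over nuclei, 1 with no minimum, 1 within progenitor-like and 1 within interstitial-like nuclei, and the 0 lower became 2 with no minimum. The 5 members highest in endothelial-like or mural-like nuclei became 3 after thinning. The 6 members apart between pericyte-like and smooth muscle-like nuclei became 2 after thinning and 15 with no minimum, and smooth muscle-like nuclei were only 47 and 17. The causes were not tested. No paired analysis was possible because each genotype had 1 library. Intervals hold counting error alone, and genotype cannot be told apart from animal or preparation.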

Other observations

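Adipocyte-like nuclei, although low in collagen RNA per UMI, held 38.9% and 41.3% of the 62221 and 52107 collagen UMIs of the libraries labelled Flox and KO, with 8893 and 8252 nuclei. Fibroblast/progenitor-like nuclei held 49.4% and 49.2%, endothelial-like nuclei 6.26% and 5.08% and mural-like nuclei 3.0% and 2.33%. The fibroblast share came from 2055 and 1420 nuclei.

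In Schwann-like nuclei the fibroblast markers stood at a median of 7.0% and 4.72% of their fibroblast level and Col3a1 at 27.0% and 33.4%, while Col16a1, Col27a1 and Col5a3 stood above the fibroblast level. These nuclei numbered 84 and 49. Type I chains were not in step in mural-like nuclei, where the UMI ratio of Col1a1 to Col1a2 was 0.453 (0.267 to 0.747) and 0.185 (0.0557 to 0.488), against 0.852 (0.816 to 0.888) and 0.941 (0.901 to 0.983) in fibroblast/progenitor-like nuclei. The mural ratios rest on 24 over 53 and 5 over 27 UMIs. Schwann-like nuclei were at 0.526 (0.219 to 1.19) and 0.50 (0.219 to 1.08), so a low ratio is not shown to be particular to mural-like nuclei. Endothelial-like nuclei were at 0.921 and 0.944 and adipocyte-like nuclei at 0.839 and 0.847.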
